A study of Mus musculus with 12 samples.

Results

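The 36 genes described here cover the hepatic stellate cell, its pericyte relatives, the collagens and other matrix proteins these cells lay down, and the TGF-beta ligand and receptor that drive them. They were a named list of genes, and all 36 were found among the 52636 Ensembl identifiers of the count files. Of these, 35 passed the filter on low counts, out of 14433 genes that passed in all, and Tagln did not. RNA-seq had been run on the liver of C57BL/6 mice, all 12 weeks old, in 12 libraries. The labels put 3 of them in p53 wt mice on the normal diet, 3 in p53 ko mice on the normal diet, 3 in p53 wt mice on HFD and 3 in p53 ko mice on HFD. HFD is taken here as a high-fat diet. The sources used here give neither the cells in which p53 was deleted, nor how, nor for how long HFD was fed. Whether each library is a different mouse is also not stated. The p-values therefore rest on the variation among libraries, and some of it may be technical.

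Stellate cells lie between the hepatocytes and the sinusoidal endothelium, where they store vitamin A and keep up a thin matrix. After injury they can turn into myofibroblasts, which contract and secrete fibrillar collagen, and TGF-beta is the best known signal for that change. Portal fibroblasts, vascular smooth muscle and pericytes share many of the same genes, so in RNA from whole liver the signal of a matrix gene is a sum over several cell types. In such samples fewer cells of a type and less RNA per cell cannot be told apart.

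Upstream sequence is shown for 3 genes that stand for different behaviour in these libraries. Rgs5 was the only gene of the list past the threshold of edgeR's test in the fit reported here, and other tools and filters called more, Col3a1 is a fibrillar collagen whose level spread widely, and Lrat is a stellate cell gene whose level spread little. The sequences are the 250 bases before the RefSeq start (GRCm38.p6), read 5′ to 3′ on the strand of the gene, and the capitals mark matches on either strand to TATAA (the TATA box core), to CCAAT (the CCAAT box) or to GGGCGG (the GC box). The first lies at chr1:169655251-169655500 on the plus strand, the next at chr1:45311288-45311537 on the plus strand and the last at chr3:82903975-82904224 on the minus strand, and none of them overlaps an annotated exon of GENCODE M21.
Rgs5: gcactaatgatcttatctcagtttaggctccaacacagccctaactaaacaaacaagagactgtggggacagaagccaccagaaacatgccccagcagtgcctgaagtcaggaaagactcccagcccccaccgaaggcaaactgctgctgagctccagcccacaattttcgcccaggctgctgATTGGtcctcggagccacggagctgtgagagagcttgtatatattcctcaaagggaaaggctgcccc
Col3a1: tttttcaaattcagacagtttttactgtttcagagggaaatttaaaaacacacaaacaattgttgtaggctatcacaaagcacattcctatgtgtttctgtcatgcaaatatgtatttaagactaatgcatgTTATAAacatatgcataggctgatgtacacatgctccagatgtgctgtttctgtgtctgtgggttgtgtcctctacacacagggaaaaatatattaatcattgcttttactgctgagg
Lrat: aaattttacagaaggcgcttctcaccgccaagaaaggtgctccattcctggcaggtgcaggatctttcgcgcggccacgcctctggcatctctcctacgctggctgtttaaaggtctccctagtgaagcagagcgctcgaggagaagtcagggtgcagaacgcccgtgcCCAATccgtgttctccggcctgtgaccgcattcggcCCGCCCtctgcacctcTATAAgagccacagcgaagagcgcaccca

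The Rgs5 stretch held a match to CCAAT on the opposite strand, which begins 67 bases before the start. In Col3a1 a TATAA match on each strand overlapped its partner, beginning 117 and 118 bases before the start. The Lrat stretch held TATAA at 29 bases, GGGCGG on the opposite strand at 45 bases and CCAAT at 81 bases. RefSeq windows of 250 bases before to 50 bases after the start were at hand for 24 of the 36 genes (27 windows). Searched on both strands, TATAA was found in 6 of these 27 windows (6 genes) and in 24.9% of all 32851 windows. For CCAAT it was 10 of 27 windows (10 genes) and 37.4% of all windows. For GGGCGG it was 16 of 27 windows (15 genes) and 35.7% of all windows. The CArG box, the motif read by serum response factor at many smooth muscle genes, was searched only as CC, 6 bases of A or T, then GG. This strict form was in none of the 27 windows and in 1.63% of all windows. Forms with another base in the core were not searched. These are matches of letters, and no factor's binding was measured.

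Total counts per library ran from 15465187 to 20492567, and levels are given as CPM, counts scaled to library size with TMM factors. Trp53, the gene targeted, stood between 8.54 and 24.5 CPM in the 6 p53 wt libraries and between 0.273 and 1.62 CPM in the 6 p53 ko libraries, so the label check held in every library. The share of counts from mitochondrial genes ran from 4.18% to 14.6%, with 14.6% in p53 ko normal library 1 and 10.3% in p53 ko HFD library 2. Among the stellate markers of the list, Lrat, Reln, Des, Rgs5, Pdgfrb, Pdgfra, Dcn and Col14a1 were all detected in all 12 libraries.

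Some libraries stood apart, and they touch most results below. In p53 wt normal library 2, 14 skeletal muscle markers summed to 12569 CPM, against at most 16.1 in the other 11 libraries, with Acta1 at 2816 and Ckm at 680 CPM. Mesothelial markers summed to 75.8 CPM there against at most 10.3 elsewhere, with Msln at 23.0 CPM, and B cell markers to 150 CPM against at most 14.9. In p53 wt HFD library 2, smooth muscle and pericyte markers summed to 289 CPM against 63.3 to 164 in the others, with Myh11 at 78.1, Actg2 at 57.9 and Cnn1 at 32.1 CPM, and Krt19, a bile duct keratin, stood at 44.5 CPM against at most 7.05. Of the 36 genes, 22 had their highest level in p53 wt normal library 2 and 7 in p53 wt HFD library 2. The part of these other tissues in the results was not tested, and differences in the genotype comparison on the normal diet are also given without p53 wt normal library 2 for most of the genes described.

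Compared per kilobase of exon, the list was led by Fn1, whose mean stood at 85.9 CPM per kb without p53 wt normal library 2. Fn1 encodes fibronectin, and hepatocytes make its plasma form. Next came the proteoglycan Bgn at 10.7, the matricellular protein Sparc at 10.5, Dcn at 9.60 and Acta2 at 9.03 CPM per kb. Without p53 wt HFD library 2 as well, Acta2 stood at 4.11 CPM per kb, below Vim at 5.20. With all 12 libraries Des was at rank 2, and without p53 wt normal library 2 it was at rank 7. The fibrillar collagens lay lower, with Col3a1 at 1.44, Col1a1 at 1.26, Col1a2 at 1.03 and Col5a2 at 0.232 CPM per kb. Lox and Timp3 were at the bottom, at 0.0896 and 0.135 CPM per kb.

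The genes differed widely in their spread over libraries. Tgfb1, Reln and Lrat had the smallest ratio of highest to lowest level over the 12 libraries, at 1.68, 1.76 and 1.97. Acta2 ran over a 182-fold range, Fbln1 over 28.9-fold and Col1a1 over 12.4-fold, and these ratios were 182, 27.6 and 11.4 without p53 wt normal library 2. The median over the list of each gene's log2 deviation from its mean over libraries was 0.34, 1.09 and 0.57 in the p53 wt normal libraries 1 to 3. It was −0.28, −0.41 and −0.27 in p53 ko normal, −0.64, 0.64 and −0.03 in p53 wt HFD, and −0.66, −0.42 and 0.15 in p53 ko HFD. All 3 p53 wt normal libraries thus lay above all 3 p53 ko normal libraries, while the groups on HFD overlapped.

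**Figure D1:**
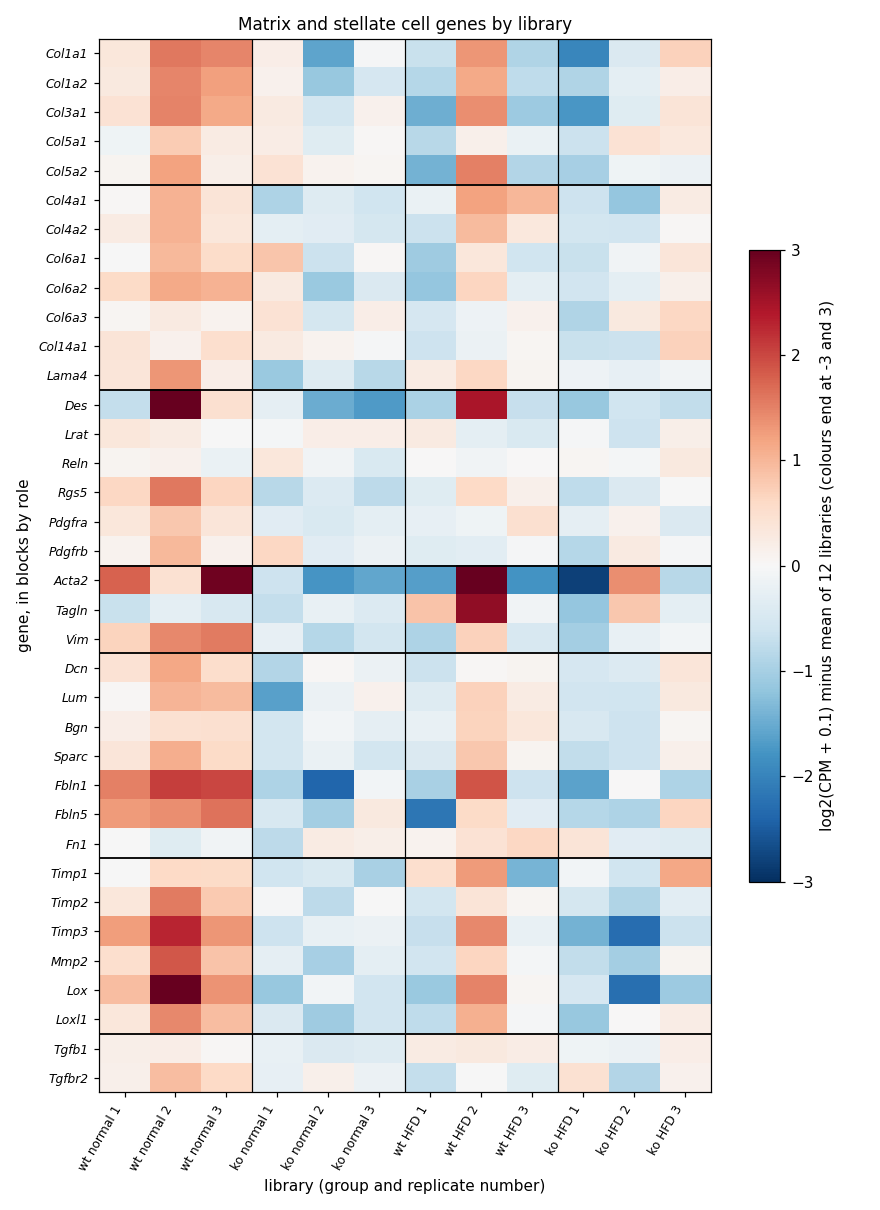
Level of each of the 36 genes (rows, in blocks by role) in each of the 12 libraries (columns), as log2(CPM + 0.1) minus the gene's mean over the libraries, red above and blue below. The p53 wt normal columns and the p53 wt HFD 2 column are mostly red, the p53 ko normal columns mostly blue, and the Lrat, Reln and Tgfb1 rows stay pale.

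The first comparison asked how the liver without p53 differs from the wild type on the normal diet. Most matrix and pericyte genes had lower fitted levels in p53 ko than in p53 wt, such as Rgs5 at 8.97 ± 1.54 against 29.3 ± 12.0 CPM and Vim at 16.8 ± 3.58 against 58.9 ± 17.6 CPM (SD, n = 3). These p53 wt means include p53 wt normal library 2, and without it they were 22.4 CPM for Rgs5 and 55.2 CPM for Vim. The stellate markers Lrat and Reln differed by less than the spread between libraries, with Lrat at 5.71 ± 0.580 against 5.99 ± 0.743 CPM. Other stellate markers named above were lower in p53 ko, namely Rgs5, Dcn at −1.04 (SE 0.31) and Pdgfra at −0.91 (SE 0.28) on the log2 scale. Des, Pdgfrb and Col14a1 overlapped between the genotypes. For Col14a1 the overlap came from p53 wt normal library 2, and Des and Pdgfrb overlapped without that library too. The other p53 wt normal libraries stood at 19.3 and 20.7 CPM for Col14a1, and p53 ko normal at 17.6, 15.8 and 14.4. No gene of the list passed the threshold of an adjusted p under 0.05 by edgeR's quasi-likelihood test, where 0.208% of all genes did. The fitted log2 difference was negative for 34 of the 35 genes tested, against 52.0% of all 14433 genes, and its median was −1.15 against −0.02 over all genes. At an unadjusted p under 0.05 there were 22 of 35 genes, all lower, against 15.1% of all genes in either direction. All p53 ko libraries lay below all p53 wt libraries for 23 genes, against 11.4% of all genes. DESeq2's Wald test called 11 of the list, all lower, where it called 3.22% of genes: Dcn, Fbln1, Lama4, Lox, Loxl1, Mmp2, Rgs5, Sparc, Timp2, Timp3 and Vim. DESeq2 was run only on all 12 libraries, so its calls include p53 wt normal library 2.

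Without p53 wt normal library 2, 30 of 35 genes had a negative difference and the median was −0.83, against 0.02 over all genes. An unadjusted p under 0.05 was then reached by 16 genes, all lower, against 9.00% of all genes. The remaining libraries did not overlap for 24 genes lower in p53 ko, where 15.7% of all genes had that pattern. Again none was past the adjusted threshold, which 0.0407% of all genes passed.

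Of the fibrillar collagens, the 5 tested had differences from −1.54 to −0.36. Col1a1, a chain of type I collagen, stood at 9.05, 21.7 and 19.9 CPM in p53 wt normal libraries 1 to 3 and at 8.23, 2.30 and 6.98 in p53 ko normal. On HFD it stood at 4.45, 18.1 and 3.74 CPM in p53 wt and at 1.75, 5.24 and 11.5 in p53 ko. The p53 wt normal libraries were the higher group without overlap, by a margin of less than 1 CPM, and on HFD the groups overlapped with 1 high library in each. The log2 difference on the normal diet was −1.54 (SE 0.71, adjusted p = 0.332 by edgeR). Col3a1, the type III chain, stood at 16.9, 35.3 and 27.6 CPM in p53 wt normal and at 15.2, 8.59 and 13.8 in p53 ko normal. Its HFD values were 4.45, 33.0 and 5.84 CPM in p53 wt and 3.68, 9.67 and 16.4 in p53 ko, so that both genotypes held low and high libraries. The log2 difference of Col3a1 on the normal diet was −1.09 (SE 0.67, adjusted p = 0.469 by edgeR). Col1a2, the second type I chain, went with Col1a1, at 25.6 ± 9.70 CPM in p53 wt normal and 9.11 ± 3.97 in p53 ko normal (SD, n = 3). The p53 wt normal mean of Col1a2 was 21.6 CPM without p53 wt normal library 2. Leaving out p53 wt normal library 2, the differences were −1.30 (SE 0.77) for Col1a1, −1.23 (SE 0.57) for Col1a2 and −0.81 (SE 0.73) for Col3a1. The type V chains, which set the width of collagen fibrils, stood at −0.36 (SE 0.34) for Col5a1 and −0.39 (SE 0.64) for Col5a2. Without that library Col5a1 was at −0.06 (SE 0.36) and Col5a2 turned to 0.11 (SE 0.70).

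Type IV collagen and laminin build the basement membrane, and type VI collagen forms microfibrils around cells. Lama4, the laminin alpha 4 chain of vessel walls, stood at 4.06, 8.0 and 3.58 CPM in p53 wt normal and at 1.39, 2.35 and 1.69 in p53 ko normal. Its HFD levels were 3.73, 4.84 and 3.29 CPM in p53 wt and at 2.80, 2.59 and 2.88 in p53 ko. Lama4 was lower in every p53 ko library than in every p53 wt library of the same diet. Its log2 difference on the normal diet was −1.52 (SE 0.34, adjusted p = 0.0901 by edgeR), and −1.05 (SE 0.31, adjusted p = 0.345) without p53 wt normal library 2.

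Col4a1 and Col4a2 are read from opposite strands of chromosome 8, and their RefSeq starts lie 21 bases apart, head to head. Col4a1 stood at 19.3, 38.4 and 24.6 CPM in p53 wt normal and 9.85, 14.2 and 12.3 in p53 ko normal, and at 16.2, 43.0 and 37.5 in p53 wt HFD and 12.1, 8.29 and 22.2 in p53 ko HFD. The genotypes did not overlap on the normal diet, and on HFD p53 wt library 1 lay inside the p53 ko range. The log2 difference was −1.18 (SE 0.40) on either diet, with adjusted p = 0.197 on the normal diet and 0.450 on HFD by edgeR. Col4a2 followed at −0.99 (SE 0.35) on the normal diet. Leaving out p53 wt normal library 2, Col4a1 was at −0.83 (SE 0.41) and Col4a2 at −0.67 (SE 0.35). Of the type VI chains, Col6a2 stood at 10.9 ± 2.14 CPM in p53 wt normal and 4.49 ± 2.14 in p53 ko normal (SD, n = 3), while Col6a1 and Col6a3 overlapped, with differences of −0.36 and −0.04. Without that library these were −0.06 (SE 0.47) and, with the sign turned, 0.05 (SE 0.40), and Col6a2 went from −1.28 (SE 0.43) to −1.14 (SE 0.48). Col14a1, a fibril-associated collagen that quiescent stellate cells express, differed by −0.23 (SE 0.32), and by −0.31 (SE 0.36) without it. The genotypes overlapped for Col14a1 with all libraries, and did not without that library.

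The stellate and pericyte markers split. Lrat encodes the enzyme that esterifies retinol for storage, and Reln encodes reelin, which stellate cells secrete in the liver. Lrat stood at 6.59, 6.24 and 5.16 CPM in p53 wt normal, 5.04, 6.04 and 6.05 in p53 ko normal, 6.31, 4.26 and 3.80 in p53 wt HFD and 5.08, 3.34 and 5.95 in p53 ko HFD. All 4 groups overlapped. The log2 difference between genotypes on the normal diet was −0.07, with a 95% interval of −0.64 to 0.51. Reln stood at 18.5, 19.2 and 15.1 CPM in p53 wt normal, 22.3, 16.2 and 12.7 in p53 ko normal, 17.6, 16.2 and 17.7 in p53 wt HFD and 18.2, 16.9 and 21.3 in p53 ko HFD. Its difference on the normal diet was −0.04, with a 95% interval of −0.48 to 0.39, which does not reach the differences of Rgs5 or Vim given below.

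Rgs5 encodes a regulator of G protein signalling that marks pericytes, and its gene lies on chromosome 1 from 169655501 to 169695813 (GRCm38). It stood at 22.2, 43.2 and 22.5 CPM in p53 wt normal and at 7.94, 10.7 and 8.23 in p53 ko normal. With HFD the levels were 11.2, 21.6 and 15.9 CPM in p53 wt and at 8.47, 10.6 and 14.2 in p53 ko. The lowest p53 wt normal library was more than 2-fold above the highest p53 ko normal library, and on HFD the genotypes overlapped. The log2 difference on the normal diet was −1.71 (SE 0.31, adjusted p = 0.0539 by edgeR), and −1.29 (SE 0.28, adjusted p = 0.171) without p53 wt normal library 2. Pdgfra and Pdgfrb are the receptors of platelet-derived growth factor. Pdgfra stood at 5.44 ± 1.06 CPM in p53 wt normal and 2.90 ± 0.184 in p53 ko normal (SD, n = 3), without overlap. The difference of Pdgfra went from −0.91 (SE 0.28) to −0.71 (SE 0.30) without p53 wt normal library 2. Pdgfrb overlapped, with a difference of −0.37 (SE 0.34) that was 0.00 (SE 0.35) without p53 wt normal library 2.

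Des, which encodes desmin, had its highest levels in the libraries that stand apart. Desmin is the intermediate filament of all muscle, and rodent stellate cells express it too. Des stood at 7.76, 547 and 17.9 CPM in p53 wt normal and at 10.6, 4.49 and 3.92 in p53 ko normal. The HFD libraries stood at 6.67, 70.5 and 7.88 CPM in p53 wt and at 5.78, 8.40 and 7.65 in p53 ko. Apart from p53 wt normal library 2 and p53 wt HFD library 2 no library was above 17.9 CPM. The log2 difference on the normal diet was −4.92 (SE 1.43, adjusted p = 0.139 by edgeR) with all libraries and −1.0 (SE 0.83, adjusted p = 0.778) without p53 wt normal library 2.

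Acta2, the smooth muscle actin that marks myofibroblasts and vessel walls, stood at 19.0, 7.57 and 42.6 CPM in p53 wt normal and at 3.53, 1.55 and 1.8 in p53 ko normal. Under HFD the values were 1.68, 128 and 1.53 CPM in p53 wt and at 0.701, 14.7 and 3.07 in p53 ko. On the normal diet the groups did not overlap, and on HFD the high value of p53 wt came from library 2 alone. The log2 difference on the normal diet was −3.33 (SE 1.49, adjusted p = 0.316 by edgeR) and −3.73 (SE 1.55) without p53 wt normal library 2. Myh11, the smooth muscle myosin, lay at 15.3, 7.57 and 47.2 CPM in the same 3 p53 wt normal libraries and at 1.8 to 3.19 in p53 ko normal. The part of vessel wall smooth muscle in the Acta2 values was not tested.

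Vim, the intermediate filament of mesenchymal cells, stood at 38.8, 66.1 and 71.7 CPM in p53 wt normal and at 20.5, 13.4 and 16.5 in p53 ko normal. On HFD it stood at 12.8, 39.4 and 17.5 CPM in p53 wt and at 11.9, 20.7 and 22.8 in p53 ko. The p53 wt normal group was apart from all others except p53 wt HFD library 2. Its log2 difference on the normal diet was −1.81 (SE 0.39, adjusted p = 0.0856 by edgeR), and −1.70 (SE 0.43, adjusted p = 0.241) without p53 wt normal library 2. Tagln, which binds actin in smooth muscle, had 1 to 33 counts a library, 33 of them in p53 wt HFD library 2, and 67.9% of its exon bases are shared with Pcsk7 or Gm48529 on the other strand.

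**Figure D2:**
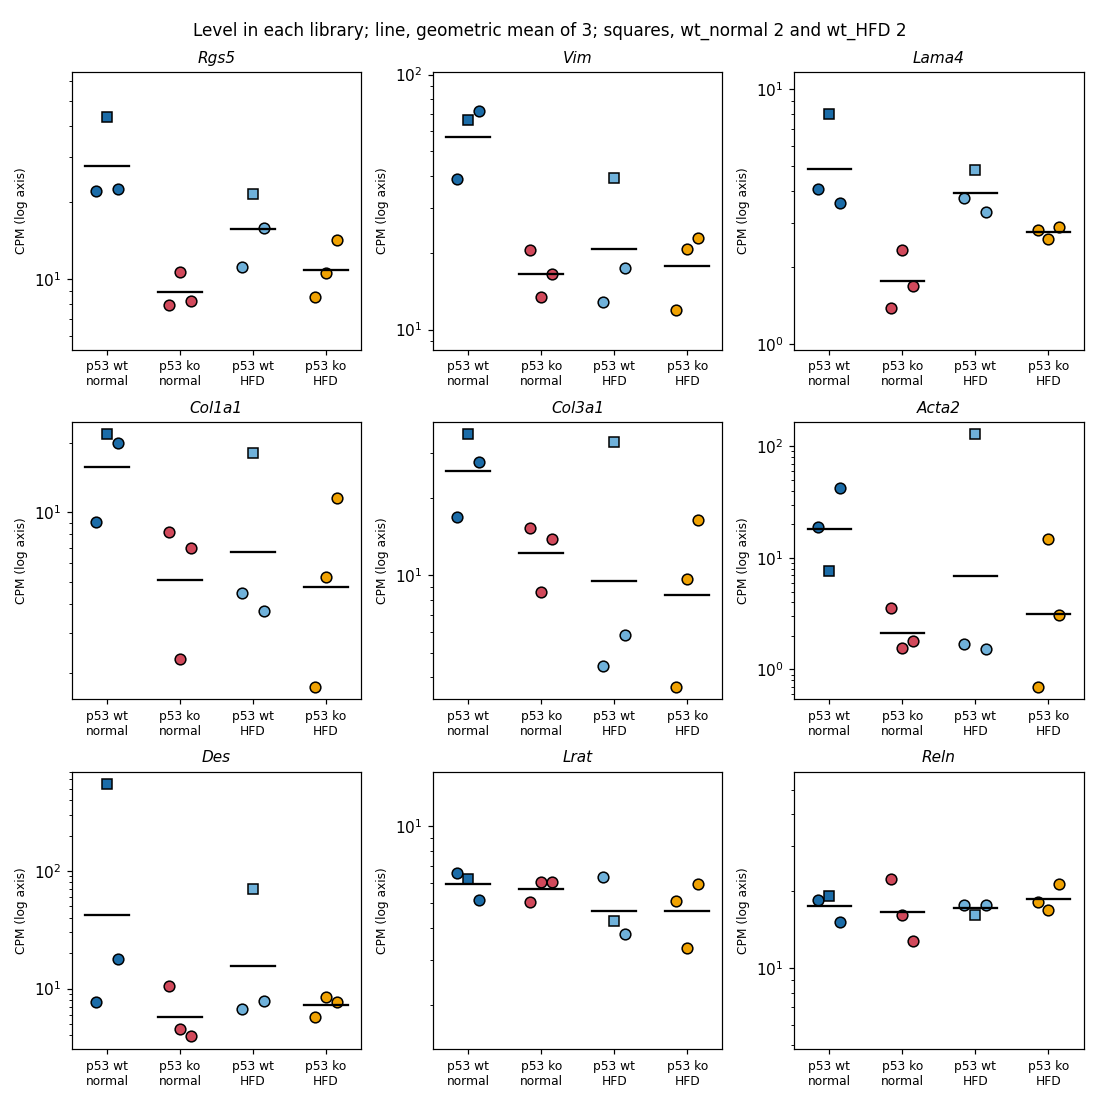
Level of 9 genes in each library (CPM, log axis) by genotype and diet, with the geometric mean of each group of 3 as a line and squares for p53 wt normal library 2 and p53 wt HFD library 2. Rgs5, Vim and Lama4 separate the genotypes on the normal diet, Acta2 and Des reach their highest levels in single libraries, and Lrat and Reln stay level.

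Among the proteoglycans and glycoproteins, 6 of 7 had negative differences on the normal diet, from −2.86 to −0.68. Bgn, a small proteoglycan that binds TGF-beta and collagen, stood at 73.6, 88.8 and 90.3 CPM in p53 wt normal and 44.0, 61.0 and 53.3 in p53 ko normal. Its HFD levels were 54.8, 102 and 81.7 CPM in p53 wt and at 46.4, 42.1 and 67.3 in p53 ko, where the groups overlapped by 1 library. The difference of Bgn was −0.68 (SE 0.24, adjusted p = 0.209 by edgeR) on the normal diet and −0.61 (SE 0.24, adjusted p = 0.508) on HFD, and on the normal diet without p53 wt normal library 2 it was −0.61 (SE 0.27). Dcn and Lum are small proteoglycans that space collagen fibrils. Dcn stood at 96.4 ± 27.6 CPM in p53 wt normal and 46.9 ± 14.0 in p53 ko normal, and Lum at 5.76 ± 1.96 and 2.60 ± 1.40 (SD, n = 3), with overlap for Lum. Sparc, which binds collagen as it is secreted, stood at 65.7 ± 17.6 and 29.8 ± 4.29 CPM. These 3 genes were highest in p53 wt normal library 2. Their p53 wt normal means without that library were 80.5, 5.10 and 55.8 CPM for Dcn, Lum and Sparc. Without p53 wt normal library 2 the difference went from −1.04 to −0.76 (SE 0.32) for Dcn. For Lum it went from −1.15 to −0.95 (SE 0.51), and for Sparc from −1.14 to −0.88 (SE 0.33). The fibulins had the widest gaps of this block. Fbln1, a glycoprotein of elastic and basement membrane matrix, stood at 7.58 ± 1.56 CPM against 1.05 ± 0.779, and Fbln5, which helps assemble elastic fibres, at 8.44 ± 1.05 against 2.45 ± 1.19 (SD, n = 3). Both kept their gap without p53 wt normal library 2, at −2.73 (SE 0.84) and −1.79 (SE 0.66). Fn1 went the other way by 0.11 (SE 0.29), with a 95% interval of −0.52 to 0.74.

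All 6 remodelling genes lay lower in every p53 ko normal library than in every p53 wt normal library, where 11.4% of all genes did. For Timp1 this rested on few counts, 5, 11 and 10 in p53 wt normal against 3, 4 and 2 in p53 ko normal. Timp2, an inhibitor of metalloproteinases that also takes part in activating Mmp2, stood at 16.6, 38.9 and 22.5 CPM in p53 wt normal and 12.8, 7.54 and 13.0 in p53 ko normal. With HFD the levels were 8.90, 17.3 and 13.6 CPM in p53 wt and at 9.05, 7.02 and 10.6 in p53 ko. The highest value was again p53 wt normal library 2, and without it the difference went from −1.23 (SE 0.34) to −0.80 (SE 0.31). Timp3, the inhibitor that stays bound to matrix, stood at 2.40, 4.95 and 2.50 CPM in p53 wt normal, 0.579, 0.799 and 0.818 in p53 ko normal, 0.541, 2.71 and 0.793 in p53 wt HFD and 0.292, 0.115 and 0.564 in p53 ko HFD. Counts were low, between 2 and 104 a library, and the genotypes did not overlap on the normal diet. The difference there went from −2.16 (SE 0.62) to −1.71 (SE 0.66) without p53 wt normal library 2. Timp3 lies inside Syn3, which is on the other strand, and shares 21.3% of its exon bases with it, while Syn3 was at 0.116 to 0.714 CPM. Timp1, an inhibitor induced in injured liver, was low throughout, at 0.308, 0.524 and 0.511 CPM in p53 wt normal, 0.174, 0.200 and 0.109 in p53 ko normal, 0.481, 0.903 and 0.0567 in p53 wt HFD and 0.292, 0.173 and 0.815 in p53 ko HFD. No library reached 1 CPM for Timp1.

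Mmp2, a gelatinase of mesenchymal cells, stood at 6.75 ± 3.53 CPM in p53 wt normal and 2.04 ± 0.556 in p53 ko normal (SD, n = 3). Loxl1 and Lox encode enzymes that cross-link elastin and collagen. Loxl1 stood at 5.41 ± 2.07 against 1.67 ± 0.377 CPM, and Lox had 13, 77 and 22 counts in p53 wt normal against 2, 7 and 4 in p53 ko normal. In p53 ko HFD Lox had 4, 0 and 2 counts. The p53 wt normal means without p53 wt normal library 2 were 4.74 CPM for Mmp2 and 4.33 CPM for Loxl1. Without that library the difference on the normal diet went from −1.73 to −1.20 (SE 0.43) for Mmp2. For Loxl1 it went from −1.70 to −1.35 (SE 0.53), and for Lox from −2.99 to −2.01 (SE 0.94).

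Tgfb1, the ligand, had narrow groups. It stood at 12.6, 12.8 and 11.5 CPM in p53 wt normal and at 9.68, 8.24 and 8.50 in p53 ko normal. The HFD libraries stood at 13.3, 13.8 and 13.1 CPM in p53 wt and at 10.2, 9.96 and 13.0 in p53 ko. Tgfb1 was thus lower in p53 ko without overlap on both diets, although on HFD p53 ko library 3 came within rounding distance of p53 wt library 3. Its log2 difference was −0.48 (SE 0.16, adjusted p = 0.197 by edgeR) on the normal diet and −0.28 (SE 0.16, adjusted p = 0.653) on HFD, and on the normal diet without p53 wt normal library 2 it was −0.43 (SE 0.19). Tgfbr2, the receptor that binds the ligand first, stood at 10.7, 18.3 and 14.5 CPM in p53 wt normal, 8.05, 10.7 and 8.45 in p53 ko normal, 5.83, 9.55 and 7.48 in p53 wt HFD and 13.2, 5.18 and 10.5 in p53 ko HFD. It overlapped between genotypes on both diets.

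On HFD the fitted levels of most genes were lower in p53 ko with all libraries. The size of the differences, the sign of their median and the sign of several genes depended on 1 p53 wt library. No gene of the list was past the adjusted threshold by edgeR, where 0.0693% of all genes were, and DESeq2 called 0 of the list and 0.508% of genes. The difference was negative for 26 of 35 genes, against 51.1% of all genes, with a median of −0.49 against −0.01. An unadjusted p under 0.05 was reached by Timp3, Col4a1 and Bgn, 3 of 35 genes against 8.85% of all genes. Every p53 ko library was below every p53 wt library for Lama4 and Tgfb1, 2 of 35 genes against 6.85%. Timp3 differed by −2.04 (SE 0.69, adjusted p = 0.450). Without p53 wt HFD library 2, which had the highest smooth muscle and Krt19 levels, 16 of 35 genes were negative, the median was 0.09 and 0 genes had an unadjusted p under 0.05, against 7.50% of all genes. The value of Col3a1 then went from −0.54 to 0.94 (SE 0.52) and Acta2 from −2.82 to 1.94 (SE 1.04), while Col4a1 was at −0.93 (SE 0.43), Timp3 at −1.05 (SE 0.61) and Bgn at −0.40 (SE 0.24). Lama4 at −0.35 (SE 0.37) and Tgfb1 at −0.26 (SE 0.19) were still lower in p53 ko without overlap.

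**Figure D3:**
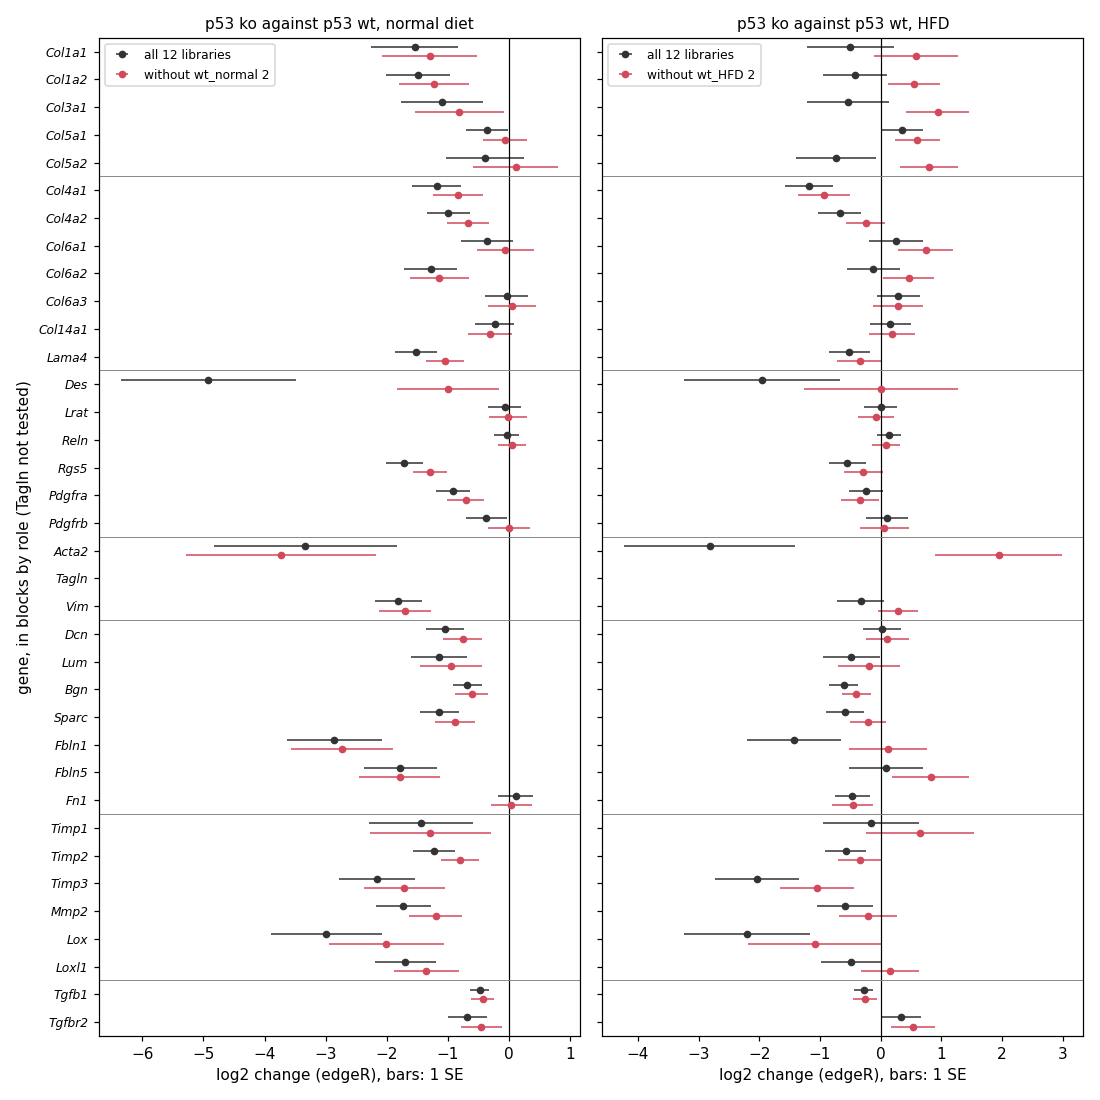
Fitted log2 difference of p53 ko against p53 wt for the 35 genes tested, with bars of 1 SE, on the normal diet (left, all libraries in black and without p53 wt normal library 2 in red) and on HFD (right, all libraries in black and without p53 wt HFD library 2 in red). On the left nearly all points stay below 0 in both fits, and on the right the red points scatter around 0.

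Averaged over both diets, 1 gene of the list passed the test. Rgs5 was lower in p53 ko by −1.13 on the log2 scale (SE 0.22, adjusted p = 0.0347 by edgeR), where 1.16% of all genes were called. This was a level 2.18-fold lower. Leaving out any of 8 of the 12 libraries ended the call. Without p53 wt normal library 2 it was −0.92 (SE 0.19, adjusted p = 0.0699) and without p53 wt HFD library 2 it was −0.98 (SE 0.22, adjusted p = 0.0681). With p53 wt normal library 2 left out, 0 genes of the list and 0.427% of all genes were called. Next was Timp3 at −2.10 (SE 0.46, adjusted p = 0.0508), then Lama4 at −1.02 (SE 0.24, adjusted p = 0.0619) and Col4a1 at −1.18 (SE 0.28, adjusted p = 0.0657). DESeq2's Wald test, run only on all 12 libraries, called 13 genes of the list, all lower, and 5.27% of genes. The difference was negative for 33 of 35 genes, with a median of −0.82 against −0.01 over all genes, and for 30 genes with a median of −0.69 without p53 wt normal library 2. The median was −0.47 without p53 wt HFD library 2 and −0.48 without both. An unadjusted p under 0.05 was reached by 21 genes, all lower, against 18.7% of all genes, and by 17 genes against 14.3% without that library. Lama4 and Tgfb1 were lower in p53 ko without overlap on both diets, a pattern that 1.62% of all genes had with all libraries and 1.95% without p53 wt normal library 2.

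The difference between the genotype effects on HFD and on the normal diet was tested as an interaction. No gene of the list passed, and 0.00% of all genes did by edgeR, while DESeq2 called 0 of the list and 0.0945% of genes. The interaction was positive for 32 of 35 genes, which means a less negative genotype difference on HFD, with a median of 0.65 against 0.01 over all genes. Vim (1.48, SE 0.55), Rgs5, Dcn, Tgfbr2 and Fbln5 had an unadjusted p under 0.05, 5 of 35 genes against 5.02% of all genes. Without p53 wt normal library 2 only Vim did (1.37, SE 0.58), 1 of 35 genes against 3.80%, and the median was 0.41. Without p53 wt HFD library 2 there were 16 of 35 genes against 6.36%, with a median of 1.11, and without both 9 of 34 against 4.51%, with a median of 0.74. None passed the adjusted threshold in these fits. A difference in the genotype effect between the diets was thus not shown for any gene of the list.

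Within p53 wt mice, most of the list had lower fitted levels on HFD, such as Vim at 23.2 ± 14.2 CPM against 58.9 ± 17.6 on the normal diet (SD, n = 3), but none was called by edgeR. The Vim mean on the normal diet was 55.2 CPM without p53 wt normal library 2. By edgeR 0 genes of the list were past the adjusted threshold, where 0.693% of all genes were, and DESeq2 called Vim, 1 of the list, and 4.30% of genes. The difference was negative for 30 of 35 genes, with a median of −0.70 against −0.03 over all genes. An unadjusted p under 0.05 was reached by 8 genes, all lower, against 17.0% of all genes, led by Vim at −1.34 (SE 0.39, adjusted p = 0.119), Timp2 at −0.97 (SE 0.33, adjusted p = 0.177) and Tgfbr2 at −0.93 (SE 0.32, adjusted p = 0.177). All HFD libraries lay below all normal libraries for Col14a1, Rgs5, Pdgfrb, Dcn, Fbln5 and Tgfbr2, 6 of 35 genes against 10.7% of all genes. Lying above without overlap were Fn1 and Tgfb1, 2 of 35 genes against 11.2% of all genes, with Tgfb1 at 0.13 (SE 0.16). Fn1 stood at 934, 730 and 877 CPM on the normal diet and 1018, 1281 and 1466 on HFD, a log2 difference of 0.57 (SE 0.29, adjusted p = 0.344).

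This comparison holds both libraries that stand apart, 1 in each group. Without p53 wt normal library 2 the median was −0.33, and 0 genes of the list were past the adjusted threshold against 0.156% of all genes. Then 2 genes, Vim and Fbln5, had an unadjusted p under 0.05, against 11.6%, and 6 genes lay lower without overlap, against 16.1%. Without p53 wt HFD library 2 instead, the median was −1.08, 20 genes had an unadjusted p under 0.05 against 15.0%, and 22 lay lower without overlap against 17.2%. With that choice Acta2 went from 0.92 (SE 1.31) to −3.81 (SE 1.1, adjusted p = 0.162) and Col3a1 from −0.89 (SE 0.66) to −2.34 (SE 0.54, adjusted p = 0.0947). Leaving out both gave a median of −0.76. The diet comparison in p53 wt and the genotype comparison on the normal diet share the p53 wt normal libraries, so their values are not independent.

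In p53 ko mice no difference between the diets was detected for these genes. None was called by edgeR, where 0.00% of all genes were, and DESeq2 called 0 of the list and 0.289% of genes. The difference was negative for 11 of 35 genes, with a median of 0.11 against 0.00 over all genes, and 0 genes had an unadjusted p under 0.05 against 5.63% of all genes. The smallest p values were those of Tgfb1 at 0.32 (SE 0.17, adjusted p = 0.868), Lama4 at 0.60 (SE 0.35, adjusted p = 0.876) and Timp3 at −1.18 (SE 0.70, adjusted p = 0.878). The diets did not overlap for Timp3 and Col5a2, lower on HFD (2 of 35 genes against 5.96%), nor for Tgfb1 and Lama4, higher on HFD (2 of 35 against 5.45%), so these shares were close to those of all genes. The 95% interval of Rgs5 ran from −0.37 to 0.98 and that of Col1a1 from −1.46 to 1.62, so the spread leaves room for a 2-fold difference of the collagen either way. Averaged over genotypes, the diet effect was negative for 28 of 35 genes with a median of −0.36, and no gene was called, where edgeR called 1.04% of all genes and DESeq2 4.75%. Vim, Timp2 and Timp3 had an unadjusted p under 0.05, 3 of 35 genes against 17.6%. There were 0 against 14.7% without p53 wt normal library 2, where the median was −0.21, and 13 against 15.9% without p53 wt HFD library 2, where it was −0.42.

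Other genes of the same pathways were read from lists of genes outside the 36. None of them was called in the genotype comparison on the normal diet. Collagen processing enzymes were balanced, with 10 of 17 negative and a median of −0.05, and the smallest p was that of Adamts2, which trims procollagen, at −1.03 (SE 0.37, adjusted p = 0.214), before Loxl2 at −1.12 (SE 0.49, adjusted p = 0.309). Of other collagens and basement membrane genes, 12 of 22 were negative with a median of −0.39, led by Lamb2 at −1.64 (SE 0.40, adjusted p = 0.0993) and Hspg2, the perlecan core protein, at −1.24 (SE 0.31, adjusted p = 0.0993). Without p53 wt normal library 2 the median was −0.25, Lamb2 was at −1.10 (adjusted p = 0.368) and Hspg2 at −0.79 (adjusted p = 0.382). Of other TGF-beta signalling genes, 19 of 22 were negative with a median of −0.52. Ccn2, the connective tissue growth factor that TGF-beta induces, stood at −1.93 (SE 0.50, adjusted p = 0.112), and Ltbp4, which holds latent TGF-beta in the matrix, at −0.95 (SE 0.25, adjusted p = 0.117). Without p53 wt normal library 2, 18 of 23 were negative with a median of −0.47. Ccn2 was then at −1.92 (adjusted p = 0.316 by edgeR) and Ltbp4 at −0.64 (adjusted p = 0.450). Of the matrix proteases, 9 of 12 were negative, and Mmp3 had the smallest p at −5.02 (SE 1.18, adjusted p = 0.0973), before Plat, the tissue plasminogen activator, at −1.97 (SE 0.79, adjusted p = 0.263). Both were near the floor, so these sizes are imprecise. Mmp3 stood at 1.91, 0.571 and 1.74 CPM in p53 wt normal and 0.116, 0 and 0 in p53 ko normal. Plat stood at 1.35, 2.09 and 1.28 CPM against 0.348, 0.250 and 0.600. The protease median was −0.60, and −0.11 without p53 wt normal library 2. Further stellate markers were negative for 16 of 20 but by little, with a median of −0.17, led by Nes at −1.78 (SE 0.49, adjusted p = 0.126) and Rspo3 at −1.22 (SE 0.43, adjusted p = 0.205). Rspo3 is also counted among the endothelial markers below. Without that library 18 of 20 were negative, the stellate median was −0.22, and Nes was at −1.11 (adjusted p = 0.490).

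Several marker lists of other cells differed in the same direction on the normal diet. Portal fibroblast markers were negative for 10 of 11 with a median of −2.39, led by Fbln2 at −4.15 (SE 0.88, adjusted p = 0.0761) and Cd34 at −3.25 (SE 0.74, adjusted p = 0.0901). When p53 wt normal library 2 was left out their median was −1.96, with Fbln2 at −2.01 (adjusted p = 0.211) and Cd34 at −1.96 (adjusted p = 0.345). In that library Fbln2 stood at 29.4 and Cd34 at 17.4 CPM, against 2.40 to 3.45 in the other p53 wt normal libraries. Smooth muscle and pericyte markers were negative for 10 of 11 with a median of −1.50, and −1.61 without that library, led by Smtn at −1.34 (SE 0.29, adjusted p = 0.0856) and Synpo2 at −4.16 (SE 1.2, adjusted p = 0.137). Mylk went the other way, at 46.0, 30.9 and 54.4 CPM in p53 wt normal and 84.5, 48.5 and 65.1 in p53 ko normal. The sums of this list overlapped, at 102 to 164 CPM in p53 wt normal and 70.9 to 110 in p53 ko normal. Endothelial markers were negative for 18 of 18, with a median of −0.91 and −0.76 without the library, led by Lyve1 at −2.50 (SE 0.51, adjusted p = 0.0662) and Ehd3 at −1.01 (SE 0.21, adjusted p = 0.0713). Summed, they ran from 652 to 733 CPM in p53 wt normal and from 324 to 518 in p53 ko normal. Macrophage markers were negative for 10 of 12 with a median of −0.16, and their sums overlapped between the groups. The lists of tissues high in p53 wt normal library 2 changed most when it was left out: the median went from −9.15 to −0.54 for skeletal muscle, from −2.53 to −0.09 for mesothelial, from −2.0 to 0.43 for B cell and from −1.25 to 0.67 for adipocyte markers. Cholangiocyte markers were negative for 2 of 5, with a median of 0.29. Portal fibroblast markers summed to 93.6 to 180 CPM in p53 wt normal, 51.5 to 84.5 in p53 ko normal, 56.5 to 150 in p53 wt HFD and 61.1 to 73.6 in p53 ko HFD. The 34 list genes other than Fn1 and Des summed to 522 to 826 CPM in p53 wt normal, 327 to 339 in p53 ko normal, 287 to 730 in p53 wt HFD and 267 to 461 in p53 ko HFD.

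Hepatocyte markers were higher in p53 ko for 5 of 6 genes on the normal diet, with a median of 0.32. They summed to 42048 to 56224 CPM in the 6 p53 wt libraries and to 74034 to 80978 in the 6 p53 ko libraries, without overlap on either diet. Most of that sum came from Alb, at 17789 to 28003 CPM in p53 wt and 36294 to 45464 in p53 ko, and Apoa1, at 9009 to 15811 and 16050 to 19652. Fgb went the other way on HFD, at −0.76 (SE 0.33, adjusted p = 0.556). Averaged over diets Alb rose by 0.86 on the log2 scale (SE 0.18, adjusted p = 0.0391 by edgeR), while Lyve1, a receptor of sinusoidal and lymphatic endothelium, fell by 1.82 (SE 0.35, adjusted p = 0.0345) and Smtn, a smooth muscle cytoskeletal protein, fell by 1.05 (SE 0.21, adjusted p = 0.0347). These 3 calls were lost without p53 wt normal library 2, with adjusted p = 0.0908, 0.0782 and 0.0865. No other gene of the marker lists was called in that comparison. The part of these other cell types in the values of the matrix genes was not tested.

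**Figure D4:**
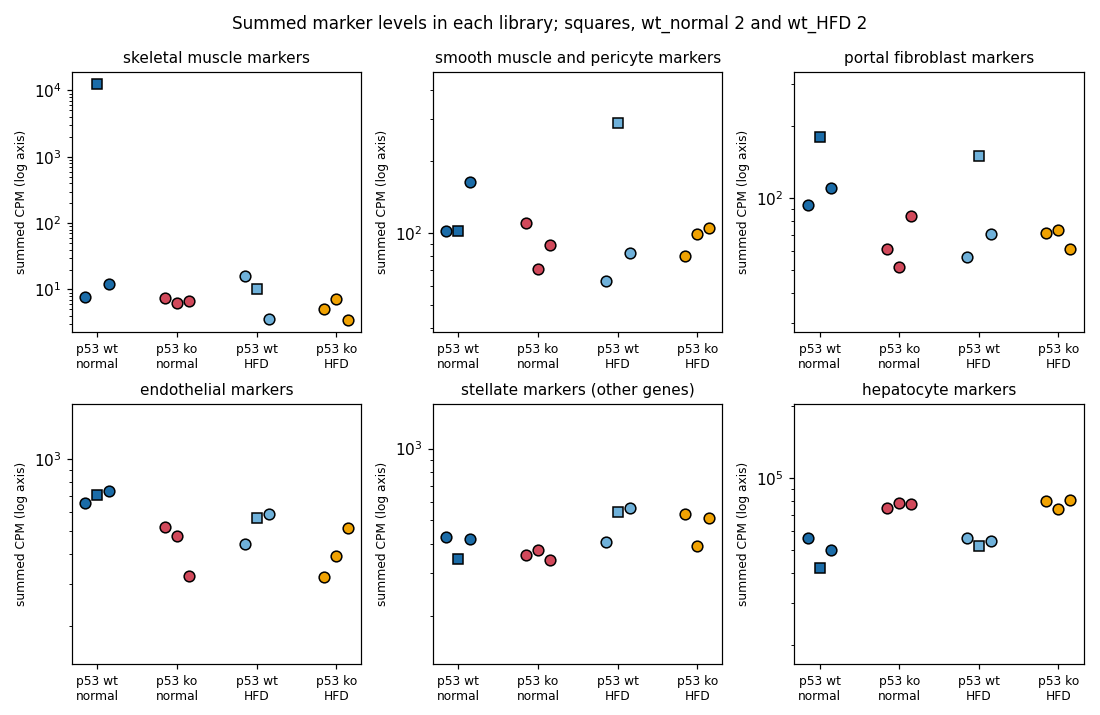
Summed level of 6 marker lists in each library (CPM, log axis) by genotype and diet, with squares for p53 wt normal library 2 and p53 wt HFD library 2. Skeletal muscle markers reach 12569 CPM in 1 library, and hepatocyte markers are higher in every p53 ko library. Portal fibroblast and endothelial markers are higher in p53 wt than in p53 ko on the normal diet. Further stellate markers overlap between genotypes on HFD. On the normal diet they overlap only through p53 wt normal library 2, at 344 CPM. The other p53 wt normal libraries stand at 427 and 419 CPM, and p53 ko normal at 342 to 376. In these libraries Ecm1 is the largest part of the stellate sum. It stands at 206, 153 and 191 CPM in p53 wt normal and at 181, 138 and 120 in p53 ko normal. Steap4, also in the sum, stands at 39.3, 21.5 and 28.9 CPM against 16.7, 79.2 and 69.8. The sum is thus mostly not a reading of the list's low-level genes.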

How the data were processed

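RNA was sequenced from 12 liver libraries, 4 groups of 3. The authors deposited whole-number read counts per Ensembl gene, 1 file a library. CASAVA 1.8 and Bowtie 0.12.2 and the builds mm8 and mm9 are named, without roles, per the submitters' processing notes. For the counting tool, the annotation and the use of strand, nothing was given in the sources used here, so overlapping genes on opposite strands are reported as uncertain. Groups and replicate numbers came from the labels.

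The 36 genes and the 15 lists of other genes were chosen with earlier results of these data known. Identifiers were matched to symbols (52403 of 52636). Positions and exon lengths are from GENCODE M21 (GRCm38), promoter sequences from RefSeq (GRCm38.p6). Counts were filtered with filterByExpr, scaled by TMM and tested with edgeR 4.0.16 (R 4.3.3) with its quasi-likelihood test, fitting the 4 group means to all 12 libraries at once (8 residual and 4.66 prior degrees of freedom), with Benjamini-Hochberg adjustment over 14433 genes and a threshold of 0.05. The 7 comparisons were p53 ko against p53 wt on each diet and averaged, HFD against normal in each genotype and averaged, and the interaction. DESeq2 1.42.0 was an alternative, as were other filters, scalings and fits and leaving out libraries. The code was tested on simulated data.

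Levels in every library are given for genes called in any comparison, for the 3 smallest p values in each genotype or diet comparison within a group, and for Col1a1, Col3a1, Lrat, Reln, Des, Acta2, Timp1 and Tgfb1. Of other lists, called genes are named, otherwise those with the smallest p. Total counts limit the precision of genes with few counts. Replicates of a group differed by a chi-square per degree of freedom of 39.5 to 199, over genes with at least 20 counts, so none was counted as a repeat. Of the other lists, Ctgf (listed also as Ccn2) and Tf had no match.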

Additional observations from a re-analysis of the deposited data

How the results depend on the processing

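The genotype difference of the 36 genes on the normal diet kept its direction in every alternative run: its median log2 change was −1.15 with all libraries and ran from −1.37 to −0.83 when 1 library was left out. The number of genes called did depend on the processing. On the normal diet it was 0 in the reported fit, 2 with only the groups compared (Rgs5 and Vim), 11 with DESeq2's Wald test and 14 with no filter on low counts, and 0 to 2 when leaving out 1 library. The replicate numbers gave no pairing: same-numbered libraries of different groups had correlations of deviations from −0.209 to 0.332, with 4 of 18 over 0.1, and in no pair of groups were all over 0.1. With the replicate number as a block, 1 gene was called on the normal diet, Rgs5 (−1.67, adjusted p = 0.0207 by edgeR). Averaged over diets, the 1 call became 13 with DESeq2, 14 with no filter, 2 at a minimum of 1 CPM in 3 libraries, and 0 to 8 when leaving out 1 library, with 8 without p53 wt HFD library 1 and 0 without wt normal library 2 or 3, ko normal library 1 or 3, wt HFD library 2 or 3, or ko HFD library 1 or 2. It became 0 without p53 wt normal library 2 and p53 wt HFD library 2 together, an alternative chosen after seeing the data. Rgs5 then had −0.80 (adjusted p = 0.0990), and over all alternatives it lost its call in 9. HFD against normal in p53 wt had 1 call with DESeq2 and 1 with no filter. The median of p53 ko against p53 wt on HFD turned to 0.09 without p53 wt HFD library 2 (range −0.74 to 0.09 when leaving out 1 library) and to 0.07 without both libraries; the cause was not tested. HFD against normal in p53 ko, near 0 throughout, ran from −0.17 to 0.25. Over all genes, p53 ko against p53 wt on the normal diet had 30 calls by edgeR, 96 with only the groups compared, 496 with DESeq2, 648 with no filter and 6 without p53 wt normal library 2, and the average over diets had 168, 786, 644 and 63 for the reported fit, DESeq2, no filter and without that library. The corresponding counts for the reported fit, DESeq2 and no filter were 10, 83 and 51 for the genotypes on HFD, 100, 622 and 696 for HFD in p53 wt, 0, 35 and 21 for HFD in p53 ko, 0, 15 and 13 for the interaction and 150, 732 and 489 for HFD averaged over genotypes. With only the groups compared they were 6 for the genotypes on HFD, 34 for HFD in p53 wt and 2 for HFD in p53 ko, and the block gave 45 for the genotypes on the normal diet. Leaving out 1 library gave 3 to 84, 2 to 14, 9 to 131, 0 to 6, 0 to 1, 45 to 254 and 45 to 272 for the genotypes on the normal diet and on HFD, HFD in p53 wt and in p53 ko, the interaction and the averages over diets and over genotypes. Timp1, Lox, Timp3 and Tagln have too few counts in some libraries for small differences to be seen.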
